A study of Mus musculus with 6 samples.

Results

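The genes described here are 10 Krueppel-like factors, chosen by name from a count table of 43629 named mouse gene models: Klf2, Klf3, Klf4, Klf6, Klf7, Klf9, Klf10, Klf12, Klf13 and Klf15. Their transcripts were measured by RNA sequencing in heart tissue of male C57BL/6 mice aged 22 months (old) and 2 months (young), with 3 samples per age, called old and young hearts 1 to 3. All mice were on normal chow and a common light cycle, and the labels give no other treatment and no genetic change. They do not say whether the 3 samples of an age are separate animals, so p-values measure the spread between these samples, which may be technical. The hour of dissection was not given, and the extraction text in the labels refers to another sample type, abbreviated NRVMs.

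Krueppel-like factors are transcription factors that bind GC-rich and CACCC-type DNA through a conserved array of zinc fingers at the end of the protein. The family shares this DNA-binding part and differs in the rest. Klf3 and Klf12 recruit the corepressor CtBP, Klf9, Klf10 and Klf13 recruit the corepressor Sin3A, and Klf2, Klf4, Klf6 and Klf7 act mostly as activators. In heart and vessels, Klf2 and Klf4 are known for the response of endothelium to blood flow, Klf15 for the control of cardiac fuel use and growth, Klf13 as a partner of cardiac factors such as Gata4, and Klf10 as a gene induced by TGF-beta.

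Libraries held 13624514 to 15525942 counts on named genes. Levels are given as CPM, counts scaled to library size, after TMM scaling, a correction for differences in library composition. Old 1 stood apart from its age, with a first principal component score of 15.0 beside 45.9 in old 2 and 48.0 in old 3, against −38.3 to −33.4 in young hearts. Cardiomyocyte markers were abundant at both ages, with a summed level of 51167 to 58956 CPM in old and 61862 to 68936 CPM in young hearts (p = 0.1 by exact permutation, two-sided; a lower p is not possible with 3 samples per age). Lymphocyte markers summed to at most 5.93 CPM in old and 6.31 CPM in young hearts, and adipocyte markers to at most 2.06 CPM in any library. Neutrophil markers summed to 12.5 to 20.5 CPM in old and 3.05 to 4.67 CPM in young hearts, with 3 of 3 tested genes higher. Mitochondrial ribosomal RNA took 1.34% to 2.31% of counts in old and 1.09% to 1.24% in young hearts. In whole tissue, fewer cells of a type and less RNA per cell cannot be told apart.

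Of the 10 Krueppel-like factors, 4 fell in old hearts (Klf3, Klf9, Klf12 and Klf13), 0 rose and 6 did not pass edgeR's quasi-likelihood test at a Benjamini-Hochberg adjusted p of 0.05. Over the 14413 genes tested in the same fit, 15.1% passed in either direction, 6.36% were lower and 8.72% were higher in old hearts. At an unadjusted p under 0.05 there were 5 members, all lower in old hearts, and DESeq2 and limma-voom also called 0 members higher. The median log2 fold change of the members, old over young, was −0.33, against 0.02 over all genes tested. In 5 members all 3 old libraries lay below all 3 young ones, as they did in 18.4% of genes tested, and in the other 5 the ages overlapped. Groups lay apart in either direction in 37.3% of genes tested. The count of members called was 4 without old 1, 2 without old 2, and 1 (Klf3) without old 3, young 1, young 2 or young 3. Over all genes 37.9% were called without old 1, 10.4% without old 2, 6.23% without old 3 and 3.63% to 4.18% without a young library, and the counts of the lists below are to be read against these shares. All 10 members passed the filter on low counts. For Klf12 the 3 old libraries alone would not have met it, since old 2 had 7 counts.

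**Figure D1:**
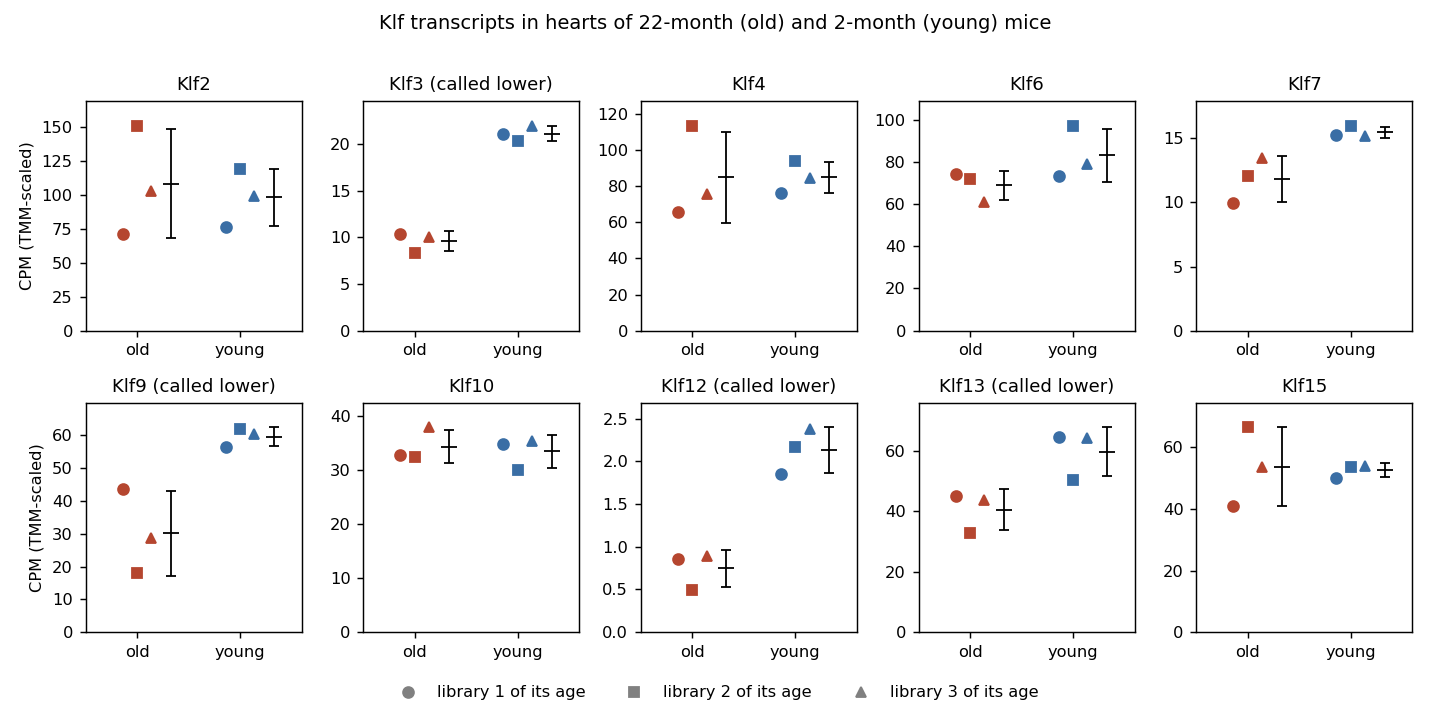
TMM-scaled CPM (vertical axis, from 0) of each Krueppel-like factor in 3 old and 3 young hearts; each symbol is a library, and the dash with bars is the mean with 1 SD. Klf3, Klf7, Klf9, Klf12 and Klf13 show old libraries below all young ones, while Klf2, Klf4, Klf6, Klf10 and Klf15 overlap.

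Of the CtBP-recruiting repressors, Klf3 and Klf12 fell. Klf3 (ENSMUSG00000029178, chromosome 5, 64803388 to 64832901 on the plus strand of GRCm38) represses transcription in erythroid and fat cells among others. It had 10.4, 8.36 and 10.01 CPM in old hearts 1 to 3, against 21.1, 20.3 and 22.0 CPM in young hearts 1 to 3. Each age was narrow and the gap between them was wide, with every old heart at about the same reduced level. The means were 9.59 ± 1.08 CPM in old and 21.1 ± 0.831 CPM in young hearts (SD, n = 3 each). This gave a log2 fold change of −1.14 ± 0.15 (SE; edgeR adjusted p = 0.00288), a level 2.2-fold lower in old hearts. It ranked 120 of 14413 by p, and it stayed under 0.05 in all 16 alternative settings (adjusted p up to 0.0232, log2 fold change −1.21 to −0.97).

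Klf12 (ENSMUSG00000072294, chromosome 14, 99870632 to 100284679, minus strand), a repressor first described at the promoter of the transcription factor AP-2alpha, had the lowest level of the 10. Its raw counts were 14, 7 and 12 in old hearts and 27, 32 and 37 in young hearts. In CPM these were 0.857, 0.496 and 0.889 in old hearts, against 1.85, 2.17 and 2.38 in young hearts. The ages lay apart in raw counts and in CPM, with old 2 lowest. Old over young, this was −1.50 ± 0.36 on the log2 scale (edgeR adjusted p = 0.0243). With counts this small, the call ended without young 1 (adjusted p = 0.0775), young 2 (0.0967), young 3 (0.106), old 2 (0.0591) or old 3 (0.0627). On the log2(FPKM + 1) scale, which shrinks ratios of low values, the change was −0.60. Klf8, the other CtBP-recruiting relative, had 11, 12 and 15 counts in old hearts and 5, 12 and 10 in young hearts. Its log2 fold change was 0.53 ± 0.46 (edgeR adjusted p = 0.454), with a 95% interval of −0.50 to 1.57.

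Among the Sin3A-recruiting members, Klf9 and Klf13 fell and Klf10 did not pass. Klf9 (ENSMUSG00000033863, chromosome 19, 23141226 to 23168134, plus strand), which glucocorticoid and thyroid hormones are known to induce, had 43.7, 18.1 and 28.6 CPM in old hearts, against 56.6, 62.0 and 60.4 CPM in young hearts. The young hearts were nearly alike, while the old hearts spread widely, with old 1 nearest to the young level and old 2 farthest from it. The coefficient of variation was 42.8% in old and 4.69% in young hearts, the largest old value among the members. The log2 fold change was −0.98 ± 0.26 (edgeR adjusted p = 0.0348), −1.36 without old 1 (adjusted p = 0.000354) and −0.72 without old 2 (0.0442). The call ended without young 1 (0.0992), young 2 (0.113), young 3 (0.0994) or old 3 (0.123).

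Klf13 (ENSMUSG00000052040, chromosome 7, 63886351 to 63938915, minus strand) had 45.0, 32.9 and 44.0 CPM in old hearts, against 64.6, 50.5 and 64.3 CPM in young hearts. The lowest young heart lay just above the highest old heart. The log2 fold change was −0.56 ± 0.16 (edgeR adjusted p = 0.0477), close to the threshold. It missed the threshold with limma-voom (adjusted p = 0.0514), with limma on log2(FPKM + 1) (0.0643) and log2(FPKM + 0.1) (0.0649), and without young 1 (0.169), young 2 (0.0787), young 3 (0.162), old 2 (0.104) or old 3 (0.096).

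Klf10 (ENSMUSG00000037465, chromosome 15, 38291463 to 38300706, minus strand) had 32.7, 32.5 and 37.9 CPM in old hearts, against 34.9, 30.01 and 35.5 CPM in young hearts. The ages overlapped, with old 3 highest and young 2 lowest of the 6. Its log2 fold change was 0.04 ± 0.13 (edgeR adjusted p = 0.867), and its 95% interval ran from −0.26 to 0.34. The related genes Klf11 (20.9 ± 1.43 CPM in old and 23.9 ± 2.34 CPM in young hearts, SD, n = 3 each) and Klf16 (7.42 ± 1.79 and 7.18 ± 0.802 CPM in the same order) also recruit Sin3A. Their log2 fold changes were −0.20 ± 0.14 (edgeR adjusted p = 0.344) and 0.04 ± 0.22 (0.911).

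The stretches before the start of Klf3, Klf9 and Klf13 are shown because these members fell, and because the GC-rich and CACCC letters that the family binds can be read in them. They are RefSeq promoter sequences of GRCm38.p6, cut where the RefSeq or the GENCODE M21 gene model starts, whichever comes first. Capitals mark a GC box (GGGCGG), the CACCC letters, an E-box (CACGTG) or a match to the MEF2 consensus, each on either strand, and neighbouring motifs can overlap. The Klf3 stretch is chr5:64803271-64803387 (plus strand), that of Klf9 chr19:23140976-23141225 (plus) and that of Klf13 chr7:63938916-63939165 (minus).
Klf3: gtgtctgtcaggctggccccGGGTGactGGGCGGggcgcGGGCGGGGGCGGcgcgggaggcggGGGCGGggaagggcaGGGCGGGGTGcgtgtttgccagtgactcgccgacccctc
Klf9: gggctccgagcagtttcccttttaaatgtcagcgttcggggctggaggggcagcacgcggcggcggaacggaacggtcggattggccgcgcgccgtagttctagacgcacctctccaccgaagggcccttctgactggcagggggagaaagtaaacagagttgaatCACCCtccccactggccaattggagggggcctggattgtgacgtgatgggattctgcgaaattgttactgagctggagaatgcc
Klf13: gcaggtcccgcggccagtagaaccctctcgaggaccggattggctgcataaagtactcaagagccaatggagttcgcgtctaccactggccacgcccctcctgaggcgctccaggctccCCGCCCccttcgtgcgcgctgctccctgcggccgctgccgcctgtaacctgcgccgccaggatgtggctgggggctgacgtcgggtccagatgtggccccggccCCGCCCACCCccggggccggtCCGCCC

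Across the 9 members with a promoter entry (all but Klf10), GGGCGG occurred in the 250 bases before the RefSeq start of 7 and CACCC in 7. Over all 32851 promoter windows of that length, these shares were 32.7% and 52.0%. The Klf3 window held 6 GGGCGG and 5 CACCC matches and that of Klf13 held 3 and 1, while the Klf9 window held 0 GGGCGG and 1 CACCC. The members' windows ranged from 48.0% G and C (Klf12) to 78.4% (Klf3), against a median of 52.4% over all windows. Neither TGACGTCA (1.55% of all windows) nor TGTTCT (16.1%) was found in any of the 9. For Klf7 and Klf12 the RefSeq start lay inside the GENCODE gene, 893 and 134883 bases from its start, so their windows are not printed.

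The activators of the family did not pass the test. Klf2 (ENSMUSG00000055148, chromosome 8, 72319033 to 72321656, plus strand), which blood flow induces in endothelium, had 71.1, 151 and 103 CPM in old hearts, against 76.7, 119 and 99.4 CPM in young hearts. Old 2 was the highest and old 1 the lowest of all 6 libraries, with the young hearts between them. The log2 fold change was 0.14 ± 0.26 (edgeR adjusted p = 0.743), and its 95% interval of −0.44 to 0.73 leaves room for changes in either direction. It was 0.37 without old 1 and −0.18 without old 2.

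Klf4 (ENSMUSG00000003032, chromosome 4, 55527143 to 55532466, minus strand), which acts beside Klf2 in endothelium and in smooth muscle and macrophages as well, followed the same order over the old libraries. It had 65.6, 114 and 75.6 CPM in old hearts, against 76.6, 94.0 and 84.5 CPM in young hearts. The means were 85.0 ± 25.4 CPM in old and 85.1 ± 8.73 CPM in young hearts (SD, n = 3 each), with a 95% interval of the log2 fold change from −0.45 to 0.45 (edgeR adjusted p = 0.997).

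Klf6 (ENSMUSG00000000078, chromosome 13, 5861482 to 5870394, plus strand), an early gene of tissue injury, had 74.2, 71.9 and 61.3 CPM in old hearts, against 73.3, 97.3 and 79.2 CPM in young hearts. The ages overlapped, with old 1 above young 1. The log2 fold change was −0.27 ± 0.15 (edgeR adjusted p = 0.239). Klf7 (ENSMUSG00000025959, chromosome 1, 64029447 to 64122282, minus strand), known from neurons and fat cells, had 9.98, 12.0 and 13.5 CPM in old hearts, against 15.2, 16.0 and 15.2 CPM in young hearts. All old libraries lay below the young ones, by little in old 3. The log2 fold change was −0.39 ± 0.16 with an adjusted p of 0.131 (edgeR), so this separation did not pass the test, nor did it in any of the 16 alternatives (adjusted p 0.0975 to 0.309).

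Klf15 (ENSMUSG00000030087, chromosome 6, 90462576 to 90475238, plus strand), a regulator of cardiac amino acid and lipid use that follows the daily clock, had 41.0, 66.4 and 53.7 CPM in old hearts, against 49.9, 53.7 and 54.0 CPM in young hearts. The old hearts lay on both sides of the narrow young range. Between the ages the log2 fold change was 0.03 ± 0.17 (edgeR adjusted p = 0.919; 95% interval −0.35 to 0.42). The coefficient of variation was 23.7% in old and 4.33% in young hearts.

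**Figure D2:**
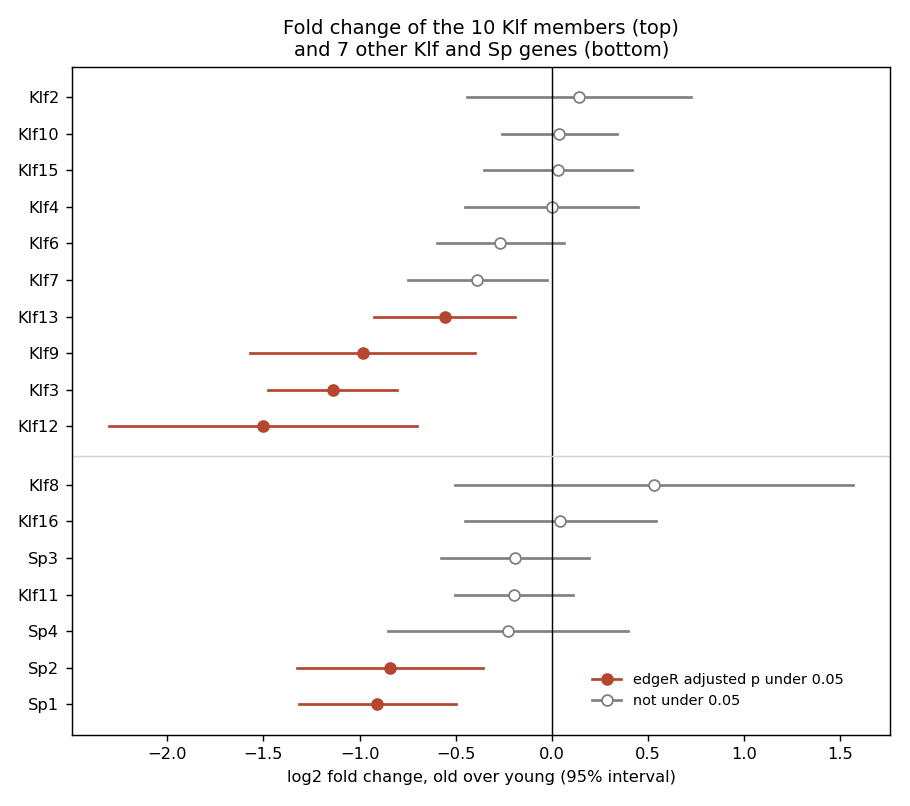
Log2 fold change (horizontal axis, old over young) with its 95% interval for the 10 members (upper block) and the 7 other Klf and Sp genes that were tested (lower block); filled points had an edgeR adjusted p under 0.05. Filled points in the upper block are Klf13 (−0.56), Klf9 (−0.98), Klf3 (−1.14) and Klf12 (−1.50), and in the lower block Sp2 (−0.84) and Sp1 (−0.91).

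The stretches before Klf2 and Klf15 show elements known to govern these genes elsewhere, a MEF2 site in Klf2, where flow signals act through MEF2 factors, and CACGTG E-boxes, the letters that clock factors bind, in Klf15. The Klf2 stretch is chr8:72318812-72319032 (plus strand) and the Klf15 stretch chr6:90462326-90462575 (plus), marked as above.
Klf2: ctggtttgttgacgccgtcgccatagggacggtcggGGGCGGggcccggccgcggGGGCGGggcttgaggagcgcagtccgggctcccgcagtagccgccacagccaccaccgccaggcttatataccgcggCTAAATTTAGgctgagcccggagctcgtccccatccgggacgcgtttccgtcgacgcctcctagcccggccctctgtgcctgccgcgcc
Klf15: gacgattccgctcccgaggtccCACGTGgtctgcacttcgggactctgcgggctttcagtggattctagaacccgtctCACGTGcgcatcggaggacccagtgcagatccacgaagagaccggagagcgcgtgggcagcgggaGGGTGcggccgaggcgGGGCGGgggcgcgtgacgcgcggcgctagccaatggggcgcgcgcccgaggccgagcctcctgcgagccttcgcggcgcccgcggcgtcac

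Klf2 was the one member of the 9 whose window matched the MEF2 consensus, a match found in 2.92% of all windows. CACGTG occurred in 3 of the 9, those of Klf4, Klf6 and Klf15, and in 6.02% of all windows. Klf15 held 2, which begin 228 and 172 bases before the start. None of these 4 genes passed the test between the ages, and a match of letters is a description of the sequence alone.

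Levels were compared between members per length, with the FPKM values the authors deposited. In young hearts the order was Klf2 (51.1 ± 10.99 FPKM), Klf4 (26.8 ± 2.76), Klf15 (19.96 ± 0.805), Klf6 (19.0 ± 2.88), Klf9 (17.6 ± 0.805), Klf10 (10.6 ± 0.922), Klf3 (8.20 ± 0.284), Klf13 (7.63 ± 1.01), Klf7 (1.83 ± 0.0596) and Klf12 (1.10 ± 0.132), each as mean ± SD over 3 libraries. Klf15, Klf6 and Klf9 overlapped with their neighbours in this order, as did Klf3 and Klf13, and the other neighbours had ranges that lay apart. In old hearts Klf9 (8.81 ± 3.70 FPKM) stood below Klf10 (10.8 ± 0.976), and Klf3 (3.70 ± 0.391) stood below Klf13 (5.16 ± 0.82). The ranges of Klf9 and Klf10 overlapped in old hearts, while those of Klf13 and Klf3 lay apart. Klf2 was first, Klf4 second, Klf7 ninth and Klf12 last at both ages.

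**Figure D3:**
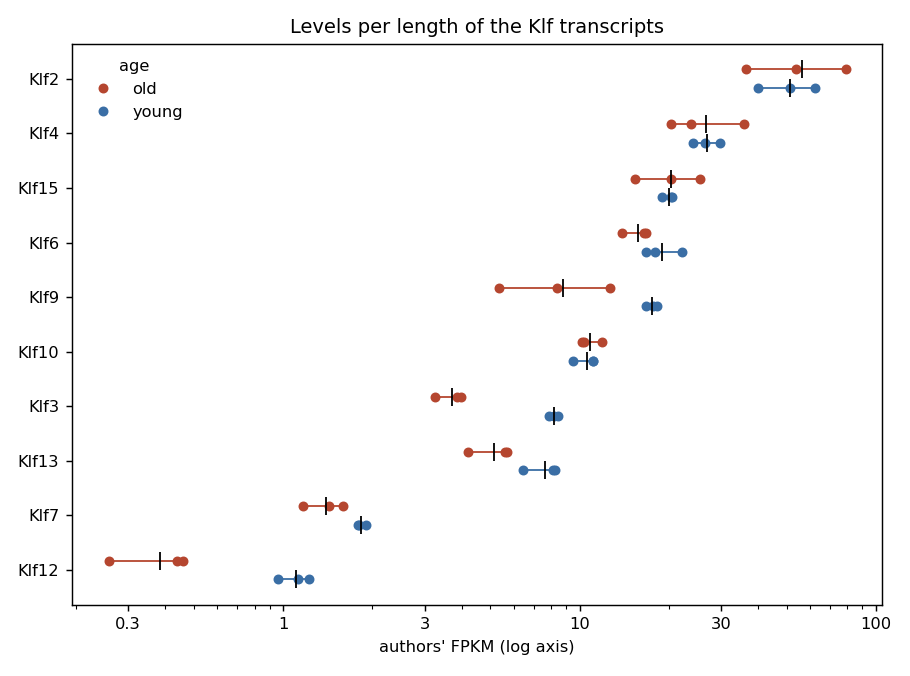
The authors' FPKM values (horizontal log axis) of each member in 3 old (red, upper) and 3 young (blue, lower) hearts; points are libraries, lines their range and ticks their mean. Genes run from the highest to the lowest young level, and Klf9, Klf3 and Klf12 show the widest gaps between the ages.

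The old hearts did not hold one order over the members. Old 2 had the highest old value of Klf2, Klf4 and Klf15 and the lowest old value of Klf3, Klf9, Klf10, Klf12 and Klf13. Old 1 had the lowest old value of Klf2, Klf4, Klf7 and Klf15 and the highest of Klf3, Klf6, Klf9 and Klf13. Taking log2 CPM centred on each gene's mean, the pair with the smallest root mean square distance over the 6 libraries was Klf4 and Klf15 (0.10 log2 units), followed by Klf2 and Klf4 (0.16) and Klf2 and Klf15 (0.20), while Klf2 lay 0.91 from Klf9. Klf2 took 29.8% of the members' counts in old 2, against 18.0% in old 1 and 16.3% to 21.8% in young hearts, and Klf9 took 3.56% in old 2, against 11.1% in old 1 and 11.4% to 12.0% in young hearts.

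**Figure D4:**
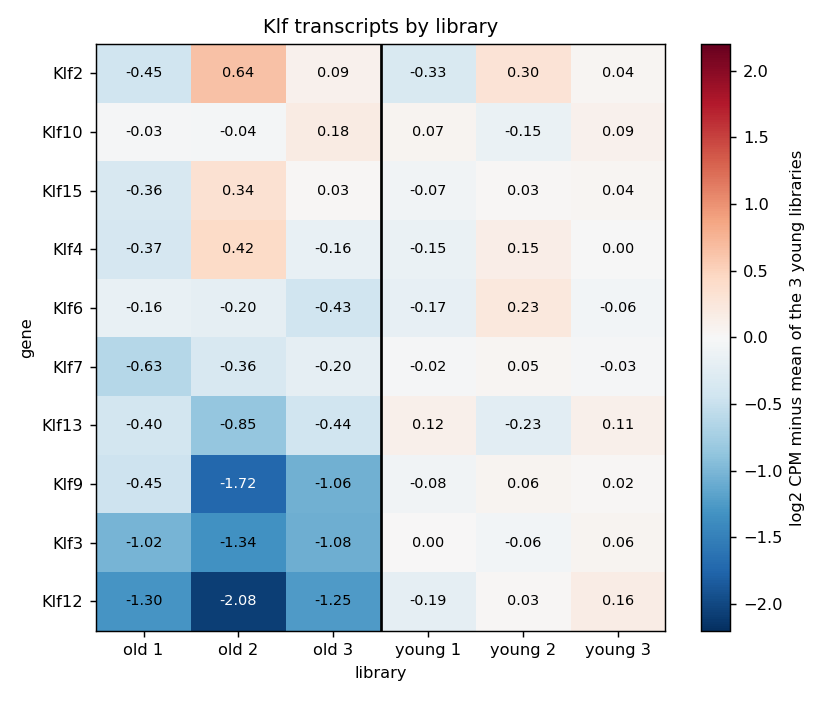
Log2 CPM of each member in each library minus its mean over the 3 young libraries, with old libraries left of the line and young ones right. Klf12, Klf3, Klf9, Klf13, Klf7 and Klf6 are below the young mean in all 3 old libraries. Klf2, Klf15 and Klf4 are above the young mean in old 2 and below it in old 1.

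For the 3 members with the smallest p, the genes with a mean of at least 10 CPM whose centred log2 CPM was nearest over the 6 libraries were also read out, as a description. Nearest to Klf3 were Tspan18 (distance 0.09 log2 units), Ppargc1a (0.10) and Pde1c (0.11). Nearest to Klf9 were Rgs5 (0.08), Steap4 (0.09) and Ptgfrn (0.10). Nearest to Klf12 were Emilin2, Nid1 and the predicted model Gm13340, at a larger distance of 0.20 to 0.21. Rgs5, a pericyte gene, had 545, 227 and 318 CPM in old hearts and 618, 699 and 697 CPM in young hearts. Rgs5 was picked for its nearness to Klf9 over these same libraries, so its shared order with Klf9 follows from that choice. Its own adjusted p was 0.0561 (edgeR, log2 fold change −0.89 ± 0.27). Mural cells include pericytes. Their markers summed to 1041, 770 and 1200 CPM in old hearts, against 1136, 1295 and 1379 CPM in young hearts. Rgs5 is 1 of these 9 markers and a large part of these sums, so they are not separate from its values. Of the 9 markers, 2 were lower, 4 had a log2 fold change above 0 (up to 1.42) and none was at 0 in any library. The part of mural cells in the values of Klf9 was not tested.

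Several gene models overlap the members in GENCODE M21, and counting by strand is not stated. Gm20033, on the opposite strand with exons that overlap Klf3, had 23, 27 and 37 counts in old hearts and 32, 14 and 15 in young hearts. Klf3 itself had 170, 118 and 135 counts in old and 308, 300 and 342 in young hearts. The part of this overlap in the counts of Klf3 was not tested. Gm27252 lies opposite an intron of Klf13 and had 108, 57 and 63 counts in old and 70, 46 and 66 in young hearts (log2 fold change 0.34 ± 0.27, edgeR adjusted p = 0.412). The other overlapping models in the table, at Klf7, Klf9, Klf12 and Klf13, had at most 2 counts in any library.

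Outside the 10 members, the family holds 16 further Klf and Sp genes, of which 7 had enough counts for the test and 2 fell. The Sp factors bind the same GC boxes. Sp1 had 29.9, 20.1 and 18.5 CPM in old hearts, against 42.7, 42.3 and 43.6 CPM in young hearts (log2 fold change −0.91 ± 0.18, edgeR adjusted p = 0.0129). Sp2 had 8.87, 5.595 and 5.56 CPM in old hearts, against 11.4, 12.1 and 12.5 CPM in young hearts (−0.84 ± 0.22, edgeR adjusted p = 0.031). Both lay below all young libraries in every old heart. Sp3 (−0.19 ± 0.17, edgeR adjusted p = 0.471), which competes with Sp1 for its sites, and Sp4 (−0.23 ± 0.28, 0.607) did not pass. The count of called genes was 3 without old 1, 1 without old 2, and 0 without old 3, young 1, 2 or 3. The other 9 genes, Klf5 and Klf17 among them, had at most 4 counts in any library.

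Genes for the cofactors and the turnover of the family were tested as well. Of 12 members of this list (CtBP, Sin3 and HDAC corepressors, acetyltransferases and ubiquitin ligases) edgeR, DESeq2 and limma-voom called 0, and 2 had an unadjusted p under 0.05. Ctbp2, a CtBP corepressor gene, had 17.8, 27.3 and 29.3 CPM in old hearts, against 17.8, 19.4 and 15.9 CPM in young hearts (log2 fold change 0.48 ± 0.20, edgeR adjusted p = 0.122). Ctbp1, the other CtBP gene of the list, had 124 ± 1.19 CPM in old and 135 ± 6.45 CPM in young hearts (SD, n = 3 each). Its log2 fold change was −0.13 ± 0.12 (edgeR adjusted p = 0.484). Hdac2 had −0.39 ± 0.15 (0.105) and the ligase gene Wwp1 −0.40 ± 0.18 (0.163). Without old 1 the count was 6, with 3 higher and 3 lower.

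The flow pathway that acts on Klf2 and Klf4 showed 1 called gene of 12, beside 15.1% of all genes tested. Mef2c, one of the MEF2 factors, had 36.1, 28.3 and 30.02 CPM in old hearts, against 51.8, 45.6 and 43.8 CPM in young hearts (log2 fold change −0.58 ± 0.14, edgeR adjusted p = 0.026). Krit1 (0.48 ± 0.17, edgeR adjusted p = 0.0917) and Heg1 (−0.44 ± 0.17, 0.112), of the cerebral cavernous malformation complex that restrains this pathway, did not pass. The count was 4 without old 1, where 37.9% of all genes were called, and 0 without any other library.

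Genes known to be raised or repressed by Klf2 and Klf4 in endothelium were read as separate lists. Of 6 tested genes known as induced, edgeR called 0, limma-voom 0 and DESeq2 1, with 2 at an unadjusted p under 0.05. In this list 5 had a log2 fold change below 0 and 1 above 0, with a median of −0.20. Tek, the receptor of the angiopoietins, had 76.9, 78.2 and 78.8 CPM in old hearts, against 106, 99.8 and 98.2 CPM in young hearts (−0.38 ± 0.12, edgeR adjusted p = 0.0549). Nos3, the endothelial nitric oxide synthase, had 53.5, 120 and 96.0 CPM in old hearts, against 65.2, 69.9 and 62.9 CPM in young hearts (0.45 ± 0.25, 0.242). The prostaglandin transporter gene Slco2a1 had −0.75 ± 0.30 (0.123). Without old 1 the count was 3, with 1 higher and 2 lower.

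Of 7 tested genes known as repressed by Klf2 or Klf4, 3 rose and 4 did not pass. In this list 5 had a log2 fold change above 0 and 2 below 0, with a median of 0.57. Vcam1, a leukocyte adhesion molecule, had 29.3, 20.04 and 23.1 CPM in old hearts, against 11.7, 11.6 and 12.0 CPM in young hearts (1.04 ± 0.17, edgeR adjusted p = 0.00582). The chemokine gene Ccl2 had 7.28, 2.55 and 2.37 CPM in old hearts, against 1.03, 0.813 and 0.836 CPM in young hearts (2.19 ± 0.49, edgeR adjusted p = 0.0188). As log2 CPM minus the young mean, the median of the list was 0.20, 0.76 and 0.33 in old hearts 1 to 3. As log2 CPM minus the mean of the old hearts, it was 0.11, −0.25 and −0.05. Old 2 was thus highest by the first measure and lowest by the second, so these medians give no single order over the old hearts. The count lay between 2 and 3 with any library left out.

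Endothelial markers were read beside these genes. Of 10 markers 3 fell, 0 rose and 7 did not pass, and none was at 0 in any library. Their median log2 fold change was −0.24, with 8 below 0 and 2 above 0, up to 0.37. Their summed level was 1207 to 1524 CPM in old and 1647 to 1782 CPM in young hearts. By exact two-sided permutation this gave p = 0.1, the smallest possible. Cdh5 had −0.996 ± 0.12, Pecam1 −0.59 ± 0.16 and Tie1 −0.56 ± 0.16 (log2 fold change; edgeR adjusted p = 0.00235, 0.0396 and 0.045). Relative to this sum, the log2 ratio of Klf2 was −4.09, −3.33 and −3.73 in old hearts, against −4.44, −3.91 and −4.05 in young hearts, which overlapped (difference 0.42, exact two-sided permutation p = 0.3). The log2 ratio of Klf4 was −4.20, −3.75 and −4.17 in old hearts, against −4.44, −4.24 and −4.28 in young hearts, so that old hearts lay above young ones (difference 0.28, exact two-sided permutation p = 0.1, the smallest possible). With 1 library left out these differences lay between 0.23 (without old 2) and 0.60 (without old 1) for Klf2 and between 0.14 and 0.36 for Klf4, without the same libraries. Neutrophil markers, given above, and macrophage markers were higher in old hearts. Macrophage markers, which include genes of cells that also express Klf4 and Klf6, summed to 398 to 597 CPM in old and 278 to 335 CPM in young hearts, with 3 of 8 higher and 0 lower. The part of these cell types in the values of the members was not tested.

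Of 20 genes known as induced by Klf15, mostly of branched-chain amino acid and lipid use, 6 fell and 0 rose, 19 had a log2 fold change below 0, and the median was −0.32. Over all 14413 genes tested 6.36% fell, 6981 were below 0 and the median was 0.02. Dbt, a subunit of the branched-chain keto acid dehydrogenase, had 31.3, 32.6 and 31.6 CPM in old hearts, against 50.9, 45.1 and 45.6 CPM in young hearts (−0.57 ± 0.12, edgeR adjusted p = 0.0155). Hibch, of valine breakdown, had −0.80 ± 0.18 (0.0189) and Slc25a20, the mitochondrial carnitine carrier, −0.74 ± 0.17 (0.0216). The glucose transporter gene Slc2a4 and the valine pathway genes Hibadh and Mut fell as well, with −0.57 ± 0.13, −0.82 ± 0.21 and −0.85 ± 0.21 (chosen for naming after their values were seen). The count was 12 without old 1, where 37.9% of all genes were called, 3 without old 2 and 0 without old 3 or young 1, 2 or 3. Of 8 cardiomyocyte markers, none of them at 0, 3 fell and 1 rose. Their median log2 fold change was −0.40, with 5 below 0 and 3 above 0, up to 0.58. The part of cardiomyocytes in the values of the genes induced by Klf15 was not tested.

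Of 5 genes of cardiac growth, listed as repressed with Klf15, 2 rose and 1 fell. Over all genes tested 8.72% rose and 6.36% fell. In this list 3 had a log2 fold change above 0 and 2 below 0, with a median of 1.04. Myh7, the slow myosin chain, had 2543, 1100 and 1445 CPM in old hearts, against 731, 776 and 692 CPM in young hearts (1.21 ± 0.27, edgeR adjusted p = 0.0187). Ctgf, a matrix-associated growth factor, had 393, 151 and 215 CPM in old hearts, against 97.7, 122 and 124 CPM in young hearts (1.14 ± 0.30, 0.0334). Acta1, skeletal actin, had 208, 170 and 151 CPM in old hearts, against 289, 579 and 587 CPM in young hearts (−1.46 ± 0.26, 0.00835). The count was 1 without young 1, 2 or 3, 2 without old 3, and 4 without old 1 or old 2.

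TGF-beta signalling, which induces Klf10 and which Klf6 and Klf10 feed back on, had 1 called gene of 14, beside 15.1% of all genes tested. Smad3, a transducer of the pathway, had 16.5, 26.0 and 21.5 CPM in old hearts, against 12.2, 14.0 and 12.7 CPM in young hearts (0.72 ± 0.18, edgeR adjusted p = 0.0307). The ligand gene Tgfb2 (0.91 ± 0.35, edgeR adjusted p = 0.11) and the coreceptor gene Tgfbr3 (−0.36 ± 0.16, 0.144) did not pass. The count was 6 without old 1, where 37.9% of all genes were called, and 0 without any other library, and it was 0 on both FPKM scales and 2 with DESeq2 or no filter.

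Klf9, Klf10 and Klf15 are known to follow the daily clock, and the hour at which each heart was taken was not given, so hour and age cannot be told apart. Of 19 clock genes 3 rose and 3 fell, with a median of −0.03. Nr1d2, a repressor of the clock, had 99.3, 92.8 and 132 CPM in old hearts, against 51.3, 54.1 and 57.6 CPM in young hearts (0.99 ± 0.16, edgeR adjusted p = 0.00546). Per2 had 41.9, 66.7 and 58.2 CPM in old hearts, against 34.3, 24.5 and 21.2 CPM in young hearts (1.06 ± 0.22, 0.0142), and Rora 19.4, 20.04 and 19.1 CPM in old hearts, against 29.3, 26.4 and 29.6 CPM in young hearts (−0.54 ± 0.12, 0.0216). The ages did not overlap in any of these 3. The count was 8 without old 1, 5 without old 2, 2 without young 1 or 2, and 1 without young 3 or old 3.

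Glucocorticoids are known to induce Klf9 and Klf15. Of 14 genes of this response 1 fell and 0 rose. Pdk4 had 1209, 716 and 860 CPM in old hearts, against 1275, 1769 and 1600 CPM in young hearts (−0.74 ± 0.21, edgeR adjusted p = 0.0426). Nr3c1, the receptor, had 44.9, 40.1 and 42.3 CPM in old hearts, against 62.5, 55.5 and 52.5 CPM in young hearts (−0.42 ± 0.13, 0.0503), and Tsc22d3 had −0.42 ± 0.14 (0.0764). Old 2 was the lowest library for Pdk4 and Klf9 and the highest for Klf15. The count was 4 without old 1, 1 without young 3 and 0 without any other library.

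Klf2, Klf4, Klf6 and Klf10 can behave as immediate early genes, which rise within minutes of a stimulus such as tissue handling. Of 16 tested immediate early genes 3 rose and 1 fell, with a median of −0.11. Nr4a1 had 12.7, 13.0 and 10.2 CPM in old hearts, against 28.1, 49.2 and 34.5 CPM in young hearts (−1.64 ± 0.21, edgeR adjusted p = 0.00278). Ier3 had 37.0, 45.2 and 32.3 CPM in old hearts, against 22.3, 17.5 and 20.2 CPM in young hearts (0.93 ± 0.16, 0.00793), and Myc 12.2, 19.5 and 19.1 CPM in old hearts, against 8.37, 4.27 and 5.85 CPM in young hearts (1.46 ± 0.27, 0.0101). The median of the list by library, as log2 CPM minus the mean of the library's own age, was 0.04, 0.19 and −0.18 in old hearts 1 to 3 and −0.39, 0.15 and 0.11 in young hearts 1 to 3. Young 1 was the lowest young library for this list and for Klf2, Klf4 and Klf6 but not Klf10, which was lowest in young 2. Among old hearts the list was lowest in old 3, while Klf2 and Klf4 were lowest in old 1. The count was 7 without old 1, 5 without old 2, 4 without young 1, 3 without old 3, and 2 without young 2 or 3.

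**Figure D5:**
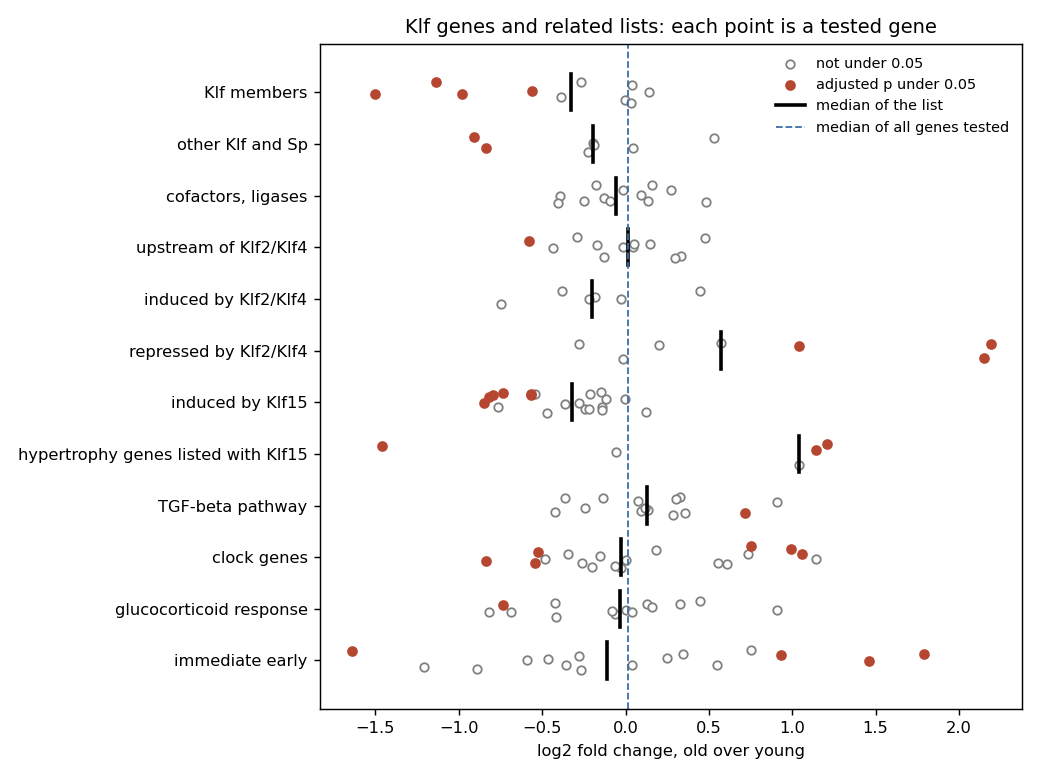
Log2 fold change (horizontal axis, old over young) of each tested gene of the Krueppel-like factors and the related lists; filled points had an edgeR adjusted p under 0.05, black bars are list medians and the dashed line is the median of all genes tested (0.02). The members (median −0.33) and the genes known as induced by Klf15 (−0.32) lie mostly left of the line, and the genes known as repressed by Klf2 or Klf4 (0.57) mostly right of it.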

How the data were processed

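RNA of 3 old and 3 young samples of mouse heart was sequenced. Per the submitters' processing notes, the authors used HISAT2, GRCm38.p6 and featureCounts of Subread. Which versions were run, and how strand and reads with several matches were treated, is not given in the sources used. The deposited counts are whole reads per gene, and the deposited FPKM values, for 13170 genes, are scaled by the authors to length and depth.

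The 571 models without a name (0.295% to 0.368% of counts) were left out. The tools were edgeR (4.0.16), DESeq2 (1.42.0) and limma (3.58.1) under R (4.3.3). After filterByExpr and TMM scaling, old was compared with young over all genes by edgeR's quasi-likelihood F test with Benjamini-Hochberg adjustment. The biological coefficient of variation was 0.187. The SE is the absolute log2 fold change over the square root of F, and 95% intervals use edgeR's degrees of freedom. The functions were checked on simulated data.

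Members and lists were chosen with earlier results of these data known. Named genes are the members, the tested Klf and Sp relatives, the 3 genes with the smallest p of each related list, and for 3 members their nearest genes; marker lists are given as sums and, for endothelium, by gene. The values of 1 gene that this rule names are not reported here. Adgre1 was read by identifier under its older name Emr1. Single summed values used exact permutation. Each library was left out in turn; other alternatives were limma-voom, limma on FPKM, DESeq2, a replicate block, no filter or a CPM filter, upper-quartile or RLE factors, and the inclusion of unnamed models. Promoters are those of RefSeq.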

Additional observations from a re-analysis of the deposited data

How the results depend on the processing

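Over 16 alternatives for each of 10 members, 132 of 160 values kept their direction and side of the threshold, 17 lost a call (Klf9, Klf12 and Klf13, values beside each gene) and 11 changed sign in members that were not called. With upper-quartile factors the log2 fold change was −0.0033 for Klf10 and −0.014 for Klf15. With 1 library left out it ranged from −0.18 to 0.37 for Klf2, −0.27 to 0.15 for Klf4, −0.0395 to 0.0761 for Klf10 and −0.15 to 0.19 for Klf15. The median of the members was −0.25 on the log2(FPKM + 1) scale, which shrinks low values.

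Leaving out 1 library gave 539 to 5569 called genes in all (2174 with all libraries; 5569, or 37.9%, without old 1), 1 to 4 called members, 0 to 3 other Klf and Sp genes, 0 to 6 cofactors, 0 to 4 upstream genes, 0 to 3 genes induced by Klf2 or Klf4, 0 to 12 induced by Klf15, 1 to 4 growth genes, 0 to 6 of TGF-beta, 1 to 8 clock, 0 to 4 glucocorticoid and 2 to 7 immediate early genes. Genes induced by Klf2 or Klf4 had 1 call with upper-quartile factors and 1 with DESeq2. The TGF-beta list had 2 calls when low counts were kept and 2 with DESeq2, and 0 on both FPKM scales. The clock list had 3 calls on both FPKM scales. The glucocorticoid list had 2 calls with upper-quartile factors, when low counts were kept, under the CPM filter and with unnamed models included, 4 with DESeq2 and 0 on both FPKM scales. The cause of these moves was not tested.

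Same-numbered libraries of the ages did not vary together (r of deviations over genes −0.09, −0.07 and 0.03). A fit with the replicate block called 4 members, 1774 genes, 3 clock genes and 0 glucocorticoid genes; the counts of the other lists were as without the block. Counts of Klf12 (7 to 37 per library) limit its precision.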
